A study of Mus musculus with 6 samples.

Results

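The potassium channel genes were taken as all rows of the deposited gene table whose symbol is Kcn, then letters, then a number, with Kcnj8 left out. Of 53715 genes in the table, 91 met this rule, and 62 of the 91 were expressed. Expressed means a CPM (estimated counts scaled to a common library total) of at least 1 in at least 3 of the 6 libraries. For this rule the CPM came from the gene table, whose counts are scaled for transcript length and are not sums of reads. The libraries hold RNA of cells sorted as pericytes, the mural cells of capillaries, by a gate for CD146 without CD45 and CD31, from the gastrocnemius and soleus muscles of wild-type male C57BL/6J mice aged 14 weeks. The 3 stimulated mice received current to the foot-moving muscles of the lower leg for some 10 minutes, in which 20 eccentric and 20 concentric contractions (40 in all) were evoked, and were killed 3 hours later. The reference was 3 sham mice of the same strain, age and sex that were not stimulated. Each library comes from its own animal, going by the stated group size of 3 mice. By third-highest CPM, the expressed genes nearest to the limit were Kcnk1 (1.17), Kcnc2 (1.14), Kcnj6 (1.13), Kcng3 (1.07) and Kcnh1 (1.04), and the nearest below it were Kcnj14 (0.954), Kcns1 (0.918), Kcng2 (0.788), Kcnmb3 (0.758) and Kcnf1 (0.711).

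Potassium channels let potassium leave the cell along its gradient and so hold the membrane potential negative. In vascular cells this sets how far voltage-gated calcium channels open, and with it the tone of the vessel. In T cells, where calcium enters through store-operated channels, potassium efflux keeps up the driving force for calcium. The family falls into voltage-gated channels (Kv), channels gated by calcium or sodium inside the cell (KCa and Slo), inward rectifiers (Kir), 2-pore background channels (K2P), and accessory subunits that carry no pore.

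What the pore-forming members share is the selectivity filter, the short loop whose backbone oxygens strip water from the potassium ion. A search of the coding sequences for the 5-codon filter signature found it in 26 of 26 expressed Kv genes, 7 of 7 KCa and Slo genes, 10 of 10 Kir genes and 9 of 9 K2P genes, all 9 of which hold it 2 times, and in 0 of 10 accessory genes. The signature was threonine, serine or asparagine, then valine, isoleucine, leucine or threonine, then glycine, then tyrosine, phenylalanine or leucine, then glycine. Coding transcripts of a gene were searched until a match, and matches in other genes were not counted. The coding strand of 4 members described in the results is shown from GENCODE mouse release M21 transcripts (GRCm38), with 1 or more for the Kv, Kir and K2P classes and with the 15 filter bases in capitals and 12 bases on either side.
Kcna3, Kv, chr3:107037599-107037637, plus strand: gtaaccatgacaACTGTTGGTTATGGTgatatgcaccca
Kcna5, Kv, chr6:126533733-126533771, minus strand: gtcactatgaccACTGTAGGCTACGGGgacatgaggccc
Kcnj2, Kir, chr11:111072195-111072233, plus strand: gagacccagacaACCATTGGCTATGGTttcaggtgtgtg
Kcnk6, K2P, first filter, across an exon junction: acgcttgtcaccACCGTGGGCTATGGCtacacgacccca
Kcnk6, K2P, second filter, chr7:29225524-29225562, minus strand: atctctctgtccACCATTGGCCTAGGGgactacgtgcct

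The libraries held 18204991, 21004095 and 23709220 estimated reads in stimulated replicates 1 to 3 and 20292341, 17520338 and 21825118 in sham replicates 1 to 3. RNA of genes that the gate selects against was present in all 6. Ptprc, which encodes CD45, stood at 989 to 1040 CPM in stimulated and 194 to 863 CPM in sham libraries, and Pecam1, which encodes CD31, at 384 to 577 CPM in stimulated and 524 to 1280 CPM in sham libraries. Mcam, which encodes the CD146 that the gate selects for, had 24.3 to 54.1 CPM in stimulated and 39.1 to 105 CPM in sham libraries. A sum of 8 T cell marker genes was higher in every stimulated than in any sham library (471 to 602 CPM stimulated, 66.5 to 371 CPM sham), and a sum of 12 endothelial marker genes was lower (2180 to 3290 CPM stimulated, 3510 to 8860 CPM sham). Sham replicate 2 had the lowest T cell and highest endothelial sum, and sham replicate 3 had the fewest genes with a read, 34697 against 39894 to 42737 in the other 5 libraries. In such mixed material fewer cells of a type and less RNA per cell cannot be told apart, and no difference below can be placed in 1 cell type.

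The comparison asks whether these genes differ 3 hours after the contractions. None of the 62 expressed members passed edgeR's quasi-likelihood test at a Benjamini-Hochberg adjusted p of 0.05, and across all 26559 genes tested the share called was 0.0%. The smallest adjusted p among the members was 0.50, for Kcnn4. At an unadjusted p under 0.05 there were 7 members, where 7.05% of all tested genes had such a p: Kcnn4, Kcnt1, Kcnip2 and Kcna1 with higher and Kcnh3, Kcnq1 and Kcnk3 with lower values after stimulation. The 4 higher members were 6.45% of the family, where 2.64% of all genes were higher at that p, and the 3 lower ones 4.84%, where 4.41% of all genes were lower. In all the 7 were 11.3% of the 62 members, above the share over all genes, and the difference was not tested. The count followed single libraries and the filter. It was 2 without sham replicate 2, where 3.97% of all genes had such a p. It was 5 among genes with 1 CPM in 3 libraries, where 7.74% did, and 10 with no filter on low counts, where 5.82% did. With DESeq2 it was 7, against 4.49% of all genes, and with limma voom 5, against 7.04%. After adjustment 1 member passed with DESeq2, Kcnh3 (DESeq2 adjusted p = 0.0078), whose value in the gene table rests on few reads, as described with the Kv genes. The share of all genes that DESeq2 called was not counted, so this member cannot be set against it.

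Of the 62 members, 25 had a log2 fold change (stimulated over sham) above 0 and 37 one below 0, with a median of -0.12, while 52.0% of all tested genes were below 0 and their median was -0.02. By class the median was -0.10 over 26 Kv genes, -0.08 over 7 KCa and Slo genes, -0.10 over 10 Kir genes, -0.20 over 9 K2P genes and 0.00 over 10 accessory genes. In summed reads 29 members were above and 33 below 0, with a median of -0.09, and 52.4% of all genes were below 0. The family median changed sign with single libraries: it was 0.07 without sham replicate 1 and 0.06 without sham replicate 2, which left 26 and 27 members below 0, and it was -0.25 without sham replicate 3. The reads summed over the members' transcripts came to 377, 384 and 408 CPM in stimulated replicates 1 to 3 and 371, 416 and 356 CPM in sham replicates 1 to 3. The sums of the 2 groups overlapped, and with 3 libraries a group the smallest two-sided p of an exact permutation test is 0.1.

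**Figure D1:**
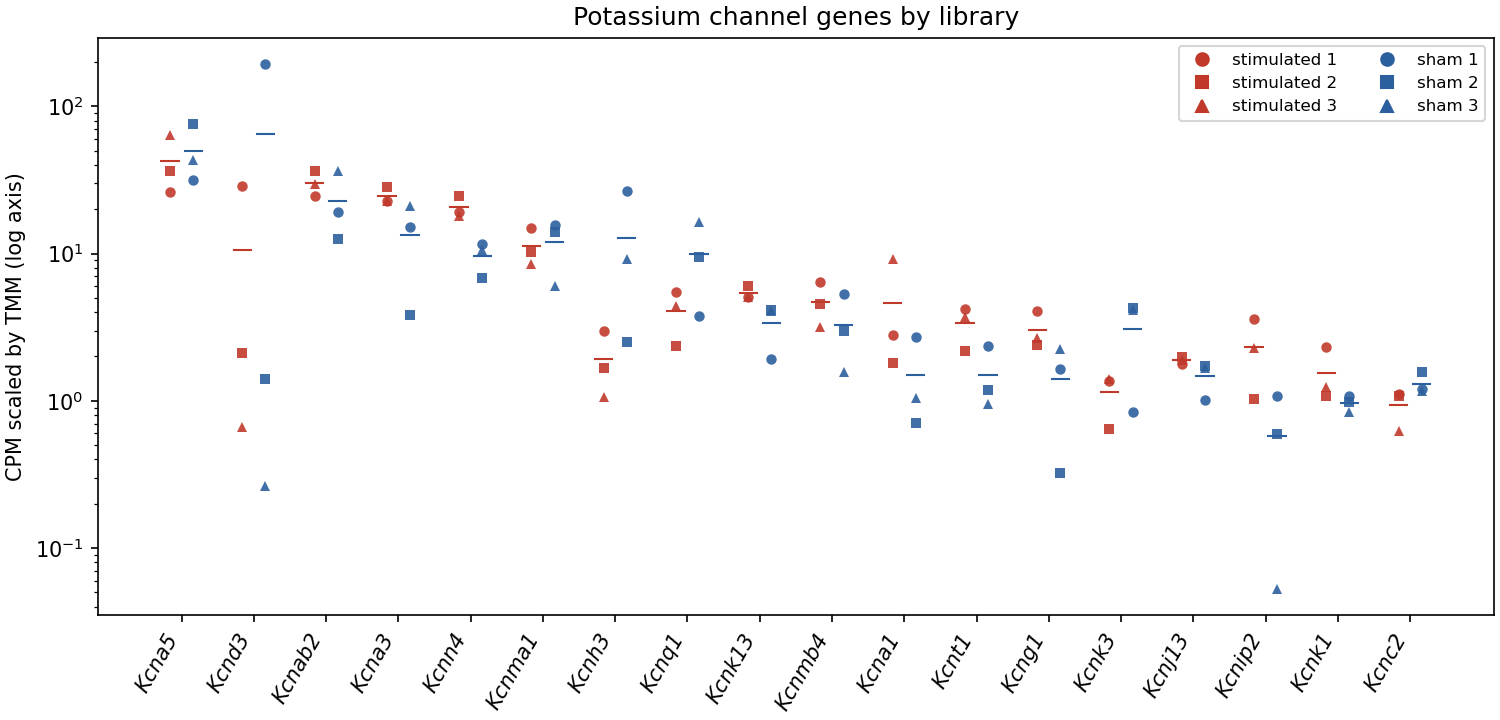
CPM scaled by TMM (log axis) of the 18 members described by rule, in the 3 stimulated (red) and 3 sham (blue) libraries, with a horizontal line at each group's mean. Kcnn4 shows all 3 stimulated libraries (18.0 to 24.6 CPM) above all 3 sham libraries (6.82 to 11.6 CPM), while for Kcnd3 the sham mean is set by sham replicate 1, at 194 CPM, and for Kcnh3 sham replicates 1 and 3 lie above the stimulated libraries, at 26.8 and 9.14 CPM.

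Levels can be compared between genes only per length, as TPM (reads per base of transcript, scaled to a common total). All TPM here are low because transcripts under 200 bases took 91.1 to 91.5% of the TPM in stimulated and 88.3 to 91.4% in sham libraries, although they took only 6.93 to 8.79% of the reads in stimulated and 4.49 to 8.10% in sham libraries. By mean TPM over all transcripts and libraries the highest members included Kcnma1 (1.44), Kcnab2 (1.31), Kcnq1 (0.653), Kcna5 (0.583), Kcnd3 (0.459), Kcnmb4 (0.449) and Kcna3 (0.316). Counting only transcripts of at least 500 bases, Kcna5 (0.583 TPM), Kcnmb4 (0.449), Kcna3 (0.316), Kcnab2 (0.288), Kcnq5 (0.277), Kcnn4 (0.253) and Kcnk6 (0.224) were among the highest, and Kcnma1 was 12th at 0.105 TPM, Kcnq1 was at 0.0895 TPM and Kcnd3 at 0.0134 TPM. This limit let in processed transcripts of Kcnmb4 with 511 and 517 bases. On protein-coding transcripts alone Kcnmb4 had 0.00792 TPM, 54th of the 62 members, and Kcnq5 had 0.0499 TPM. The depth behind the members described here ranged from 60 reads over all 6 libraries for Kcnj11 to 5504 for Kcna5, and 3 members had fewer than 100. Sham replicate 3 was the lowest library for 30 of the 62 members by summed reads, or 48.4% of them, where it was lowest for 25.0% of all tested genes. Of the 91 genes, 79, 68 and 71 had at least 10 reads in stimulated replicates 1 to 3, against 80, 71 and 55 in sham replicates 1 to 3.

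Among the channels gated by calcium or sodium, Kcnn4 had the smallest p of the family. It encodes KCa3.1, the intermediate-conductance channel that calmodulin opens when calcium rises, best known from red cells, activated T cells and endothelium. Kcnn4 (ENSMUSG00000054342.8, chromosome 7, 24370263 to 24386690, plus strand, GRCm38) had 19.2, 24.6 and 18.0 CPM in stimulated replicates 1 to 3, against 11.6, 6.82 and 10.5 CPM in sham replicates 1 to 3. Every stimulated library lay above every sham library. The mean was 20.6 ± 3.52 CPM in stimulated and 9.64 ± 2.50 CPM in sham libraries (SD, n = 3 each), a log2 fold change of 1.09 (SE 0.29), with an edgeR p of 0.0044 before and 0.50 after adjustment over all genes. From summed transcript reads the log2 fold change was 1.06 (SE 0.28). Of its 1813 reads 63.4% lay on protein-coding transcripts and 36.6% on transcripts with a retained intron. On the coding transcripts alone there were 223, 342 and 242 reads in stimulated replicates 1 to 3, against 114, 73 and 155 in sham replicates 1 to 3, a log2 fold change of 1.27 (SE 0.34, edgeR adjusted p = 0.30). Without any 1 library the log2 fold change stayed between 0.91 and 1.25, and over all 20 alternatives between 0.84 and 1.27, with edgeR, voom and DESeq2 adjusted p of 0.11 to 1.

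T cell markers were higher in the same libraries, 8 of 8, with a median log2 fold change of 1.19. Their summed level was 471, 602 and 485 CPM in stimulated replicates 1 to 3 and 371, 66.5 and 311 CPM in sham replicates 1 to 3, and none of the 8 was at 0 in any library. Kcnn4 amounted to 4.07, 4.08 and 3.71% of this sum in the stimulated libraries, against 3.13, 10.3 and 3.37% in the sham libraries, so that 5 of the 6 shares lay between 3.13 and 4.08% and sham replicate 2, the library with the lowest T cell sum, stood apart. Neutrophil markers were higher in 8 of 8 tested, with sums of 164 to 242 CPM in stimulated and 86.6 to 96.4 CPM in sham libraries, and among them only Ly6g, which was not tested, was at 0 in a library, sham replicate 3. The part of these cells in the Kcnn4 difference was not tested. The 250 bases upstream of the Kcnn4 start in the RefSeq promoter table (GRCm38.p6, chr7:24370013-24370262, plus strand) are shown because Kcnn4 had the family's smallest p; capitals mark a match to the NF-kB motif that begins 33 bases before the start.
Kcnn4 promoter: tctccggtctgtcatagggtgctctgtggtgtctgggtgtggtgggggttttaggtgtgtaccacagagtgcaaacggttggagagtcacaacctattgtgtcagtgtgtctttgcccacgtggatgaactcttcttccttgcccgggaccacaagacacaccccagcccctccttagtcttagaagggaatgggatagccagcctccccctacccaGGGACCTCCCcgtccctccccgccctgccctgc
On both strands, 7 of the 45 expressed members with an upstream sequence had an NF-kB match in at least 1 window, as did 7.25% of all 32851 windows of this length. The AP-1 motif TGANTCA was found for 4 members (6.75% of all windows), and the CRE motif TGACGTCA (1.55%) and the CArG box (1.47%) for 0 members. The 45 members have 68 windows, so the counts of members and the shares of windows are not on 1 base.

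**Figure D2:**
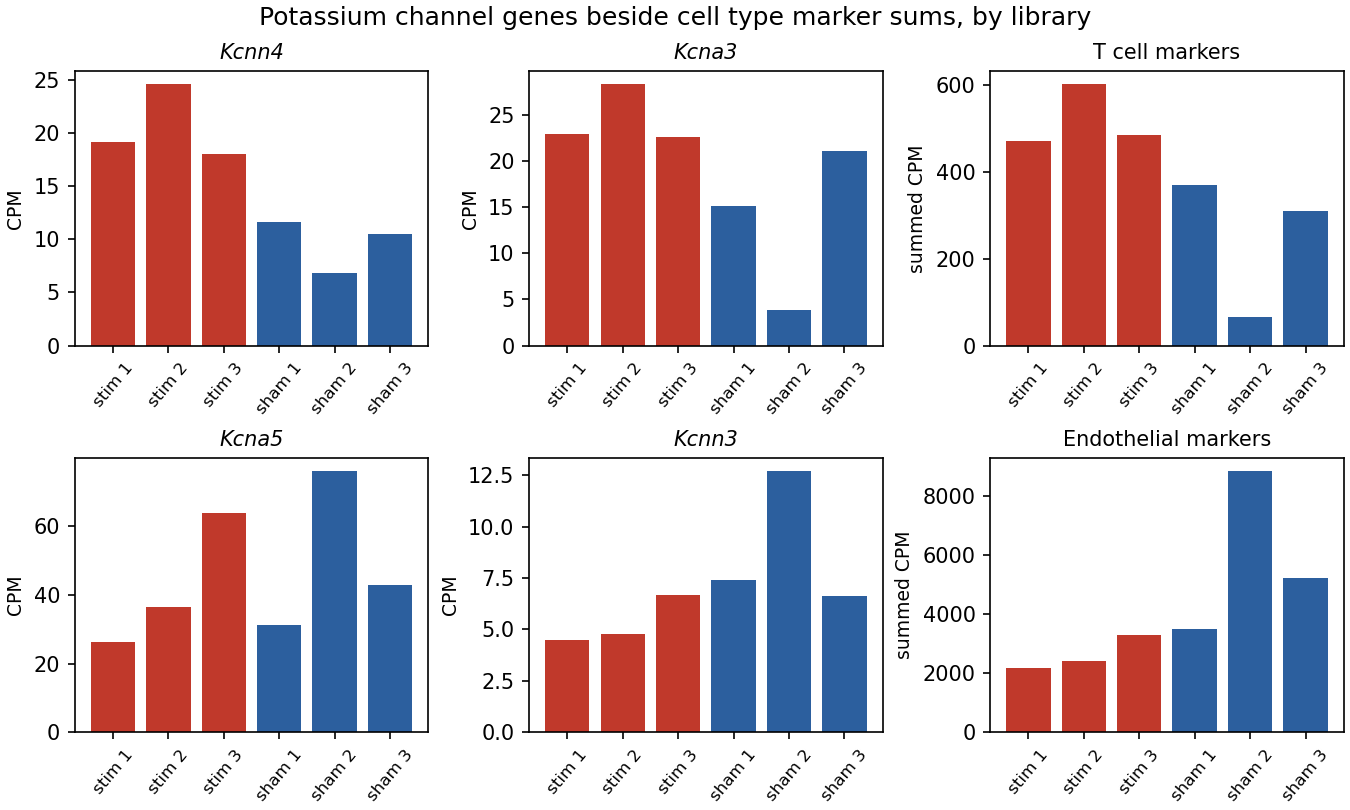
CPM scaled by TMM of Kcnn4, Kcna3, Kcna5 and Kcnn3 and the summed CPM of T cell and endothelial markers (linear axes from 0), 1 bar for each stimulated (red) and sham (blue) library. The T cell sum is lowest in sham replicate 2 (66.5 CPM), where Kcna3 is also lowest (3.85 CPM), and the endothelial sum is highest there (8860 CPM), as are Kcna5 (76.1 CPM) and Kcnn3 (12.7 CPM).

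Kcnn3, the small-conductance SK3 channel of endothelium and neurons, pointed the other way, and was singled out after its values were seen. It had 4.48, 4.78 and 6.67 CPM in stimulated replicates 1 to 3, against 7.42, 12.7 and 6.62 CPM in sham replicates 1 to 3. The groups overlapped by stimulated replicate 3 in the gene table, and did not overlap in summed reads, where the log2 fold change was -0.80 (SE 0.33, edgeR adjusted p = 0.63). It was -0.75 (SE 0.35) in the gene table. In the stimulated libraries 12 of 12 endothelial markers were lower (median log2 fold change -1.08), and none of them was at 0 in any library. Kcnn3 was 0.206, 0.199 and 0.203% of their summed CPM in stimulated replicates 1 to 3, against 0.212, 0.144 and 0.126% in sham replicates 1 to 3, and their part in the difference was not tested. Of the Kcnn3 reads 63.6% lay on retained-intron transcripts.

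Kcnma1, the large-conductance BK channel that relaxes vascular smooth muscle, averaged 11.3 ± 3.37 CPM in stimulated and 11.9 ± 5.21 CPM in sham libraries (SD, n = 3 each). It had 15, 10.3 and 8.49 CPM in stimulated replicates 1 to 3, against 15.7, 14.1 and 5.99 CPM in sham replicates 1 to 3, a log2 fold change of -0.08 (SE 0.40). Sham replicate 3 was the lowest library, and without sham replicate 1 the value was 0.16. Its place at the head of the TPM order came from a processed transcript of 447 bases, which took 632 of its 1461 reads. Kcnt1, the sodium-activated channel Slack, had 4.21, 2.17 and 3.71 CPM in stimulated replicates 1 to 3, against 2.35, 1.19 and 0.945 CPM in sham replicates 1 to 3. The groups overlapped, and the log2 fold change of 1.16 (SE 0.47, edgeR adjusted p = 0.67) in the gene table was 0.30 (SE 0.40) in summed reads. Of its 230 reads 64.4% were on retained-intron transcripts. The other members of this class, Kcnn1, Kcnn2 and Kcnt2, had log2 fold changes of 0.77, -0.15 and -0.52, with unadjusted p of 0.25 to 0.77.

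The Kv genes carried the most reads of the family. Summed over 26 genes they took 193, 205 and 240 CPM of transcript reads in stimulated replicates 1 to 3 and 196, 239 and 208 CPM in sham replicates 1 to 3. Kcna5, the Kv1.5 channel of vascular smooth muscle and atrium, had 26.3, 36.6 and 64.0 CPM in stimulated replicates 1 to 3, against 31.4, 76.1 and 42.9 CPM in sham replicates 1 to 3. Its log2 fold change of -0.24 (SE 0.41) became 0.06 when stimulated replicate 1 was left out and 0.20 when sham replicate 2 was. Kcna5 was highest in sham replicate 2, which also had the highest endothelial, smooth muscle and pericyte marker sums. Sums of 9 macrophage and 8 fibro-adipogenic marker genes were highest there too, at 725 and 873 CPM. As a share of the endothelial sum Kcna5 was 1.21, 1.52 and 1.95% in stimulated replicates 1 to 3, against 0.895, 0.860 and 0.819% in sham replicates 1 to 3. These shares did not overlap, but neither did the endothelial sum itself. A gene with equal levels in all libraries would also have had separated shares. The smooth muscle sum was 107 to 257 CPM in stimulated and 178 to 477 CPM in sham libraries, with 9 of 9 markers lower and none at 0 in any library. Kcna5 was 21.6 to 24.9% of it in the stimulated libraries, against 13.9 to 17.6% in the sham libraries. The part of these cells in the Kcna5 value was not tested.

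Kcna3 encodes Kv1.3, the main voltage-gated channel of resting T cells. It had 22.9, 28.3 and 22.6 CPM in stimulated replicates 1 to 3, against 15.1, 3.85 and 21.1 CPM in sham replicates 1 to 3. All stimulated libraries lay above all sham libraries in the gene table, by 22.6 against 21.1 CPM at the nearest, and the groups overlapped in summed reads. The log2 fold change was 0.88 (SE 0.50, edgeR adjusted p = 0.81), 0.45 without sham replicate 2 and 1.39 without sham replicate 3. Kcna3 was 4.87, 4.70 and 4.65% of the T cell marker sum in stimulated replicates 1 to 3. In sham replicates 1 to 3 it was 4.07, 5.78 and 6.76%. A sum of 7 B cell markers was also lowest in sham replicate 2. That sum was 1280, 1450 and 1040 CPM in stimulated replicates 1 to 3, against 800, 128 and 1700 in sham replicates 1 to 3. The part of either cell type in the Kcna3 difference was not tested. Kcna2 lies 63076 bases from Kcna3 on chromosome 3 and encodes Kv1.2, found on myelinated axons. It had 11.6, 12.4 and 23.5 CPM in stimulated replicates 1 to 3, against 13.7, 7.80 and 7.30 CPM in sham replicates 1 to 3, with a log2 fold change of 0.72 (SE 0.38), and is given after its values were seen.

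Kcna1, the axonal channel Kv1.1, was high in 1 library. It had 2.79, 1.82 and 9.19 CPM in stimulated replicates 1 to 3, against 2.71, 0.704 and 1.05 CPM in sham replicates 1 to 3. The groups overlapped, and the log2 fold change was 1.62 (SE 0.70, edgeR adjusted p = 0.70). Without stimulated replicate 3 it was 0.63, and in summed reads without that library -0.17. The summed CPM of 8 Schwann cell markers was also highest in stimulated replicate 3, at 133 against 80.7 and 85.8 in the other two stimulated libraries and 76.5 to 85 in the sham libraries, with 5 of 8 markers higher and none at 0 in any library. The sum of 8 myofibre genes was highest there too, at 149 CPM against 42.4 and 44.0 CPM in the other two stimulated libraries and 24.3 to 42.2 CPM in the sham libraries, with 8 of 8 higher and none at 0 in any library. The part of either cell type in the Kcna1 value was not tested.

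Kcnq1 encodes Kv7.1, known for the slow repolarising current of the heart and for epithelial potassium recycling. It had 5.48, 2.37 and 4.38 CPM in stimulated replicates 1 to 3, against 3.78, 9.42 and 16.5 CPM in sham replicates 1 to 3. Sham replicate 1 lay within the stimulated range and the other two sham libraries above it. The log2 fold change was -1.28 (SE 0.53, edgeR adjusted p = 0.68) in the gene table, -0.90 (SE 0.39) in summed reads and -0.68 without sham replicate 3. The gene table adds weight to 38 reads on a 282-base transcript, of which the stimulated libraries had 6, 3 and 6 and sham replicates 1 to 3 had 1, 10 and 12. Of the 1.15 TPM of Kcnq1 in sham replicate 3, 0.436 came from 2 reads on a 182-base transcript of effective length 8. Of its 0.451 TPM in sham replicate 1, 0.304 came from 1 read on a 196-base transcript of effective length 9. Kcnq1 is overlapped on the opposite strand by Kcnq1ot1, at 419 CPM on average. The overlap is one of gene spans, introns included, and whether their transcripts share bases was not examined. Whether counting used strand is not given in the sources used here, so any reads shared by both genes cannot be told apart.

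Kcnd3 and Kcnh3 show how few reads can set a value. Kcnd3, the transient channel Kv4.3, had 29.0, 2.12 and 0.663 CPM in stimulated replicates 1 to 3, against 194, 1.41 and 0.263 CPM in sham replicates 1 to 3. Sham replicate 1 stood far above the rest, with 7.96 reads on a processed transcript of 199 bases to which the tables give an effective length of 9 bases. The log2 fold change was -2.63 (SE 2.13) in the gene table, 0.30 (SE 0.63) in summed reads and 3.65 in the gene table without sham replicate 1. Kcnh3, the neuronal channel Kv12.2, had 3.00, 1.68 and 1.06 CPM in stimulated replicates 1 to 3, against 26.8, 2.49 and 9.14 CPM in sham replicates 1 to 3. Its 2 high libraries are the ones with 3.00 and 0.998 reads on a 217-base processed transcript of effective length 12. The log2 fold change of -2.75 (SE 0.78, edgeR adjusted p = 0.54) was 0.00 (SE 0.58) in summed reads, of which 88.4% lay on retained-intron transcripts and 10.3% on coding ones. Without sham replicate 1 the gene table gave -1.61. Mcrs1, at 17.1 CPM on average, overlaps it on the opposite strand.

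Further Kv genes had low levels. Kcng1, the silent subunit Kv6.1, had 4.06, 2.41 and 2.65 CPM in stimulated replicates 1 to 3, against 1.64, 0.325 and 2.26 CPM in sham replicates 1 to 3. Its groups did not overlap in the gene table (log2 fold change 1.10, SE 0.61, edgeR adjusted p = 0.80). They overlapped in summed reads, where the log2 fold change was 1.25 (SE 0.62). The gene table value was 0.64 without sham replicate 2. Kcnc2, the fast channel Kv3.2, had 1.11, 1.08 and 0.619 CPM in stimulated replicates 1 to 3, against 1.20, 1.57 and 1.16 CPM in sham replicates 1 to 3 (log2 fold change -0.48, SE 0.48). It was the only member in the gene table whose stimulated libraries all lay below the sham libraries, and they overlapped in summed reads. Its value was -0.25 without stimulated replicate 3. Kcnh6, a channel of the Erg family given after its values were seen, had 2.58, 5.37 and 2.83 CPM in stimulated replicates 1 to 3, against 1.11, 1.08 and 2.94 CPM in sham replicates 1 to 3, a log2 fold change of 1.07 (SE 0.52, edgeR adjusted p = 0.74).

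Across the family the groups did not overlap for 7 members in the gene table, higher after stimulation for Kcna3, Kcng1, Kcnj13, Kcnk1, Kcnk13 and Kcnn4 and lower for Kcnc2. Over all tested genes 12.0% had groups that did not overlap, 6.12% higher and 5.89% lower. In summed reads there were 6 such members, among them Kcnj13, Kcnk1, Kcnmb4 and Kcnn4 higher and Kcnn3 lower, against 12.1% of all genes tested on summed reads (6.08% higher and 6.03% lower). At an unadjusted p under 0.05 summed reads gave 5 members, among them Kcnn4 and Kcnmb4 higher and Kcnn3 and Kcnq1 lower, against 7.49% of all genes, and 0 of the 62 passed after adjustment, where 0.00377% of all genes did. Kcnn4 and Kcnq1 are the members found at that p by both ways of counting.

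**Figure D3:**
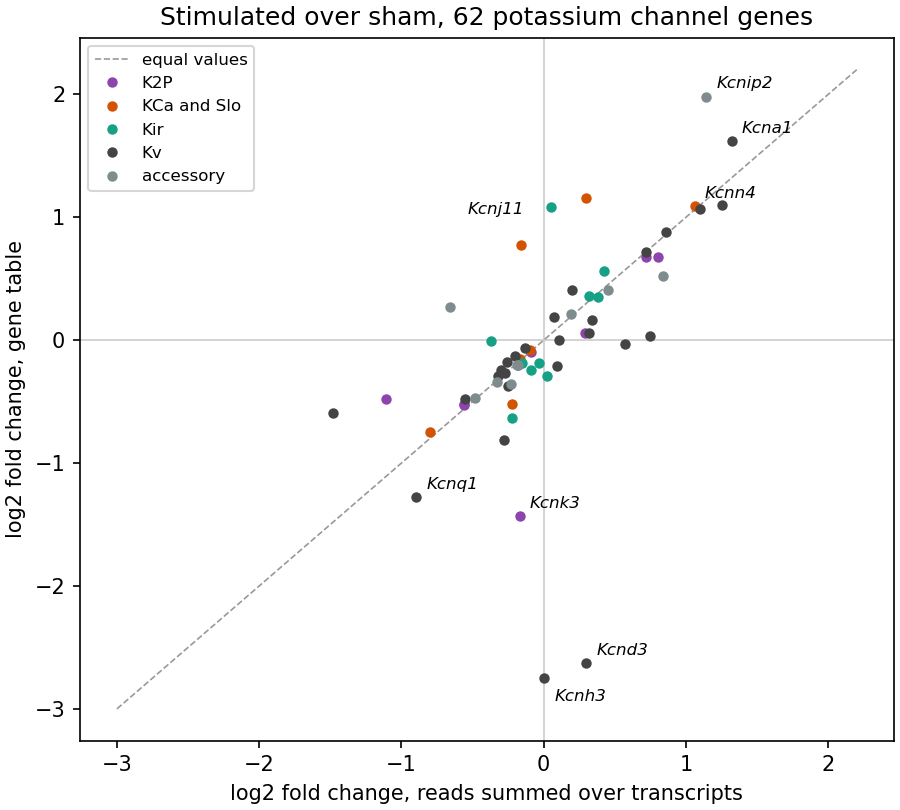
Log2 fold change (stimulated over sham) of the 62 expressed members from the deposited gene table (vertical) and from reads summed over transcripts (horizontal), coloured by class, with a dashed line where both are equal. Kcnd3 and Kcnh3 lie far below the line (-2.63 and -2.75 against 0.30 and 0.00), Kcnk3 below and Kcnj11 above it, while Kcnn4 lies on it (1.09 and 1.06).

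The gene table and the summed reads differed by more than 1 (log2) in 4 of the 62 members, or 6.45%, and in 284 of 26276 genes, or 1.08%. The members were Kcnd3, Kcnh3, Kcnk3 and Kcnj11, and 8 members changed sign between the 2 ways of counting. Kcnk3, the acid-sensitive background channel TASK-1, had 1.37, 0.641 and 1.41 CPM in stimulated replicates 1 to 3, against 0.844, 4.28 and 4.15 CPM in sham replicates 1 to 3. The 2 high sham libraries are the ones with 2.64 and 3.23 reads on a 507-base processed transcript. Its log2 fold change was -1.43 (SE 0.63, edgeR adjusted p = 0.71) in the gene table, -0.17 (SE 0.45) in summed reads and 0.01 (SE 0.47) on coding transcripts, which took 97.3% of its reads. Kcnj11, the pore of the pancreatic KATP channel, stood at a log2 fold change of 1.08 (SE 0.83) by the gene table and 0.05 (SE 0.79) by its 60 summed reads, and is named after its values were seen. In summed reads it had 0.162 to 0.879 CPM, so it counts as expressed by the gene table only.

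The background K2P channels were led by Kcnk6, TWIK-2, for which macrophage and vascular roles are described. Given after its values were seen, it had 20.2, 18.7 and 23.3 CPM in stimulated replicates 1 to 3, against 21.4, 28.2 and 21.8 CPM in sham replicates 1 to 3. The groups overlapped, and the log2 fold change was -0.20 (SE 0.24). Kcnk13, the channel THIK-1, had 5.06, 6.06 and 5.08 CPM in stimulated replicates 1 to 3, against 1.91, 4.12 and 4.10 CPM in sham replicates 1 to 3. These groups did not overlap in the gene table and did in summed reads, and the log2 fold change was 0.68 (SE 0.37, edgeR adjusted p = 0.79), or 0.39 without sham replicate 1. Kcnk1, TWIK-1, had 2.32, 1.08 and 1.24 CPM in stimulated replicates 1 to 3, against 1.07, 0.975 and 0.840 CPM in sham replicates 1 to 3. They were separated by 1.08 against 1.07 CPM at the nearest, and the log2 fold change was 0.68 (SE 0.48), or 0.32 without stimulated replicate 1. The K2P genes other than Kcnk1, Kcnk3, Kcnk6 and Kcnk13 ranged from -0.53 to 0.06, with the acid- and volume-sensitive TASK-2 gene Kcnk5 at -0.10.

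Among the inward rectifiers Kcnj2 had the highest level. It encodes Kir2.1, which in capillary endothelium responds to potassium outside the cell. Given after its values were seen, it had 11.9, 10.5 and 11.4 CPM in stimulated replicates 1 to 3, against 10.8, 16.4 and 11.3 CPM in sham replicates 1 to 3. Only sham replicate 2 stood apart, and the log2 fold change was -0.19 (SE 0.27). Kcnj13, the epithelial channel Kir7.1, had 1.79, 1.97 and 1.90 CPM in stimulated replicates 1 to 3, against 1.02, 1.73 and 1.68 CPM in sham replicates 1 to 3. The groups did not overlap, with a log2 fold change of 0.35 (SE 0.41), or 0.14 without sham replicate 1, and the gene lies where Gigyf2, at 106 CPM on average, runs on the opposite strand. The other 8 Kir genes ranged from -0.63 for Kcnj6 to 1.08 for Kcnj11, with 0 at an unadjusted p under 0.05.

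Accessory subunits change the gating and traffic of the pore subunits. Kcnab2, the Kv beta subunit that binds Kv1 channels, had 24.8, 36.6 and 29.5 CPM in stimulated replicates 1 to 3, against 19.2, 12.6 and 36.5 CPM in sham replicates 1 to 3. The groups overlapped, and the log2 fold change was 0.41 (SE 0.38). It was 0.25 without stimulated replicate 2, 0.12 without sham replicate 2 and 0.94 without sham replicate 3. Kcnip2, a calcium-binding partner of Kv4 channels, had 3.58, 1.03 and 2.30 CPM in stimulated replicates 1 to 3, against 1.07, 0.596 and 0.0525 CPM in sham replicates 1 to 3. The groups overlapped between stimulated replicate 2 and sham replicate 1, and the log2 fold change was 1.98 (SE 0.81, edgeR adjusted p = 0.68), or 1.14 (SE 0.64) in its 114 summed reads. On coding transcripts Kcnip2 had 20, 20 and 15 reads in stimulated replicates 1 to 3, against 23, 9 and 0 in sham replicates 1 to 3. The log2 fold change on those reads was 0.85 (SE 1.02). Kcnmb4, a beta subunit that makes BK channels less sensitive to iberiotoxin, had 6.43, 4.53 and 3.18 CPM in stimulated replicates 1 to 3, against 5.29, 2.98 and 1.58 CPM in sham replicates 1 to 3. Its log2 fold change was 0.52 (SE 0.48) in the gene table and 0.84 (SE 0.37, edgeR adjusted p = 0.66) in summed reads, but only 8.83% of its reads lay on the coding transcript. The gene table value was 0.28 without stimulated replicate 1, 1.05 without sham replicate 1 and 0.20 without sham replicate 3. Kcnmb1, the beta subunit of smooth muscle BK channels, had 7.95, 4.88 and 4.38 CPM in stimulated replicates 1 to 3, against 6.18, 4.28 and 4.41 CPM in sham replicates 1 to 3. Its log2 fold change was 0.21 (SE 0.35), while 9 of 9 smooth muscle markers had values below 0 and a median of -1.02. The part of smooth muscle in the Kcnmb1 value was not tested. Kcnmb1 lies within Kcnip1, which runs on the opposite strand at 2.26 CPM on average.

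**Figure D4:**
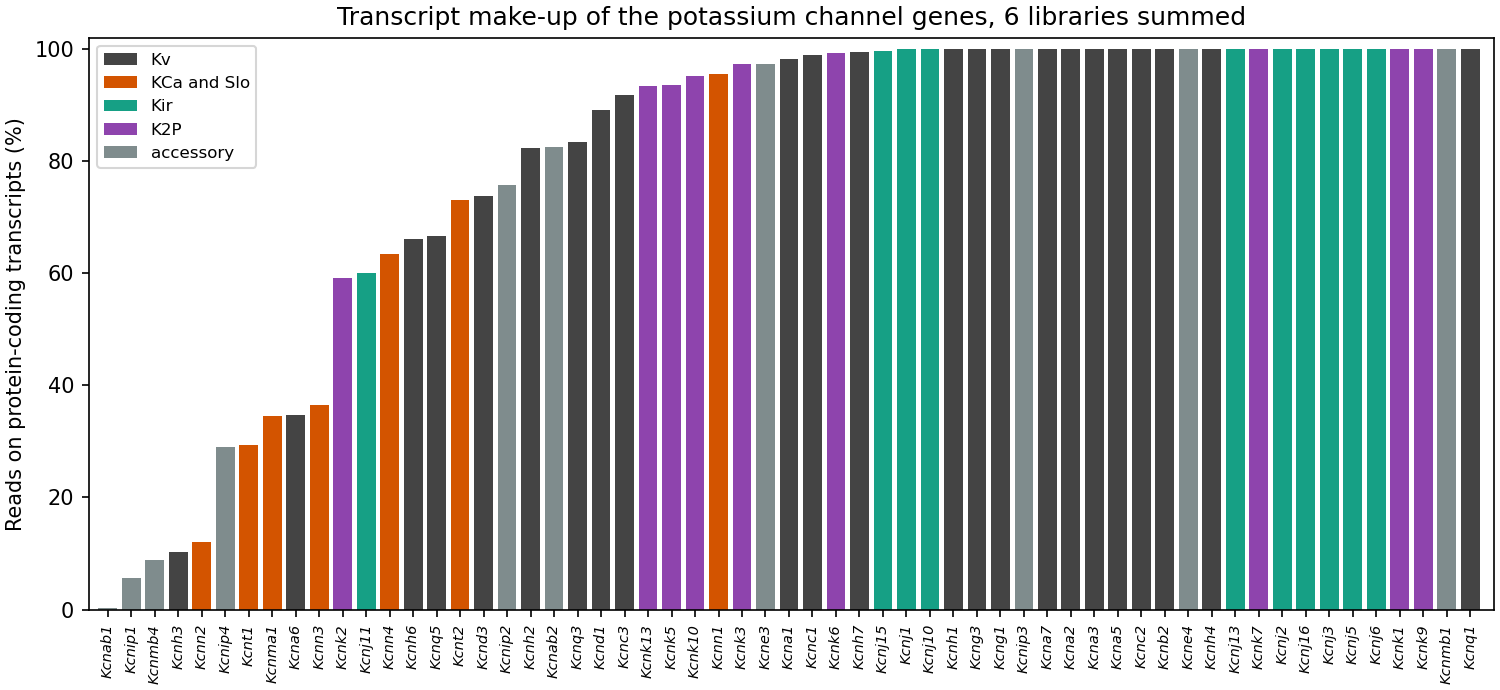
Share of reads, 6 libraries summed, of 59 expressed members that lay on protein-coding transcripts (%), in rising order and coloured by class. The share is 50% or less for 10 of those drawn, from 0.355% for Kcnab1 to 36.4% for Kcnn3, and over 50% for the other 49.

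Reads of a member need not come from RNA that encodes the channel. The median share of reads on protein-coding transcripts was 97.3% over the 62 members, and 11 were at or below 50%. Among these were Kcnab1 (0.355%), Kcnip1 (5.66%), Kcnmb4 (8.83%), Kcnh3 (10.3%), Kcnn2 (12.0%), Kcnip4 (29.0%), Kcnt1 (29.4%), Kcnma1 (34.5%), Kcna6 (34.7%) and Kcnn3 (36.4%). By class they were 3 of 26 Kv genes, 4 of 7 KCa and Slo genes, 4 of 10 accessory genes and 0 of 10 Kir and 0 of 9 K2P genes. With reads on coding transcripts alone, 56 of the 62 members could be tested, 28 of them below 0, with a median log2 fold change of 0, and 2 had an unadjusted p under 0.05, where 9.12% of all genes tested on coding reads did.

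Genes that work beside the channels were described from 3 lists. Of potassium channel partners, 2 of 12 tested were above and 10 below 0, with a median log2 fold change of -0.36, and 1 had an unadjusted p under 0.05, where 7.05% of all tested genes did. It was Dpp10, which speeds Kv4 gating, with 19.2, 16.2 and 14.2 CPM in stimulated replicates 1 to 3, against 37.6, 20.6 and 26.3 CPM in sham replicates 1 to 3. The groups did not overlap, and the log2 fold change was -0.77 (SE 0.29) in the gene table and -0.21 in summed reads. Abcc9, the sulfonylurea receptor of vascular KATP channels, had 19.1, 20.0 and 29.2 CPM in stimulated replicates 1 to 3, against 27.7, 46.8 and 26.4 CPM in sham replicates 1 to 3, a log2 fold change of -0.56 (SE 0.31). It belongs to the 12 pericyte markers as well, of which 12 were below 0 with a median of -0.94; their sums were 192 to 443 CPM in stimulated and 363 to 777 CPM in sham libraries, and their part in the Abcc9 value was not tested.

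The sodium-potassium pump and cotransporter list had 4 of 13 above and 9 below 0 (median log2 fold change -0.11). Of these 2 had an unadjusted p under 0.05, where 7.05% of all tested genes did, and both are beta subunits of the pump. Atp1b1 had 16.9, 30.9 and 17.5 CPM in stimulated replicates 1 to 3, against 10.9, 7.53 and 16.6 CPM in sham replicates 1 to 3 (log2 fold change 0.90, SE 0.37). Atp1b2 had 5.85, 5.32 and 6.89 CPM in stimulated replicates 1 to 3, against 17.8, 8.67 and 9.66 CPM in sham replicates 1 to 3 (log2 fold change -1.0, SE 0.34). Both had groups that did not overlap, unadjusted edgeR p of 0.037 and 0.017, and adjusted p of 0.68 and 0.62. The calcium channel list had 12 of 22 above and 10 below 0, with a median of 0.06, and 3 had an unadjusted p under 0.05, all higher, where 2.64% of all tested genes were higher at that p. Cacnb1, the beta subunit of the skeletal muscle channel, had 6.64, 5.76 and 4.95 CPM in stimulated replicates 1 to 3, against 3.51, 3.03 and 3.41 CPM in sham replicates 1 to 3, with a log2 fold change of 0.80 (SE 0.30) and 0.84 in summed reads. The beta subunit Cacnb3 had 27.8, 14.7 and 14.3 CPM in stimulated replicates 1 to 3, against 7.15, 5.15 and 9.87 CPM in sham replicates 1 to 3, and the gene table gave 1.36 (SE 0.37, log2 fold change), the summed reads 0.34. Both had groups that did not overlap. The N-type pore gene Cacna1b was high in 1 library only, with 20.0, 2.32 and 5.13 CPM in stimulated replicates 1 to 3, against 1.78, 3.20 and 1.37 CPM in sham replicates 1 to 3, and its log2 fold change was 2.11 (SE 0.73) in the gene table and -0.29 in summed reads. For each of these lists 0 members passed after adjustment over all genes.

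Some members are neighbours in the genome, and their values can be set side by side. On chromosome 6, Kcna5, Kcna1 and Kcna6 lie within gaps of 61945 to 172917 bases and had log2 fold changes of -0.24, 1.62 and 0.06. On chromosome 9, Kcnj1 and Kcnj5 lie 28143 bases apart and had 0.56 and -0.19. On chromosome 11, Kcnj16 and Kcnj2 lie 38196 bases apart and had -0.29 and -0.19. Of the 62 expressed members 34 are overlapped by a gene on the opposite strand and 13 by 1 on the same strand. These are overlaps of gene spans, introns included. Counts may share reads with those genes, but whether they do was not examined.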

How the data were processed

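Each of 6 libraries was prepared from total RNA with the SMARTer Pico kit, which keeps strand, per the labels' protocols. Titles gave the groups and replicate numbers. Salmon 0.8.2, Trimmomatic 0.36, edgeR, bcl2fastq 2.17.1.14, R 3.5.1 and the build GRCm38 are named in the submitters' processing notes. Deposited by the authors were estimated counts per gene (53715 genes) and, per library, transcript tables with TPM and estimated counts for 135181 transcripts, per the file headers. In the 14096 genes with TPM above 0.1 in every library, gene count over TPM was constant within 1% in 100%, after scaling each library, so gene counts are length-scaled TPM and not sums of reads.

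Estimated counts were rounded. filterByExpr (minimum count 10, total 15) kept 26559 genes. Stimulated was tested against sham in R 4.3.3 by the robust quasi-likelihood F test of edgeR 4.0.16 with TMM and Benjamini-Hochberg adjustment over all genes; printed CPM are scaled by TMM, except in the expression rule. The SE is the log2 fold change over the square root of F. Alternatives were DESeq2 1.42.0, limma voom (limma 3.58.1), RLE, other filters, each library left out, a replicate block and transcript sums; coding reads only and transcript sums without each library were added after the data were seen. Code was tested on simulated counts. Replicates differed by a chi-square of 30.4 to 112 per gene, so no library is a copy. Same-numbered libraries correlated at 0.33, -0.19 and 0.05 in their deviations from the group mean, and the other pairs at -0.31 to 0.29. With 3 libraries a group this cannot decide whether numbers pair them, and they were not treated as pairs.

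The members and lists were chosen with earlier results of these data known. Library values are given for the 8 members highest in TPM and for those with an unadjusted p under 0.05 or groups that do not overlap, and from the lists for members at that p; genes said to be given after their values were seen, and Abcc9, Kcnmb1 and the class members given by fold change alone, lie outside this rule. Some members, and some sequences, are counted but not reported here. Gene positions and transcript types come from GENCODE release M21, to which 91 of 91 members matched. No protein sequence was used here.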

Additional observations from a re-analysis of the deposited data

How the results depend on the processing

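No member passed the adjusted threshold with edgeR, voom or any library left out. With DESeq2 1 passed, Kcnh3, and the share of all genes called by DESeq2 was not counted. The count at an unadjusted p under 0.05 was 7 and ranged from 2 to 10 when a library was left out, being 4 without stimulated replicate 3 (6.58% of all genes at that p), 2 without sham replicate 2 (3.97%), 10 without sham replicate 1 (9.38%) and 9 without sham replicate 3 (11.4%); it was 5 in summed reads, with 3 to 8 when a library was left out (4 without stimulated replicate 1, and 3 when stimulated replicates 2 or 3 or sham replicate 2 were left out), and 2 on coding reads (9.12% of all genes). Members below 0 were 26 to 37 and, in summed reads, 24 to 37, the lowest without sham replicate 1. Their median of -0.12 ranged from -0.25 to 0.07, above 0 without sham replicates 1 (0.07) and 2 (0.06), and in summed reads from -0.21 to 0.20, above 0 without stimulated replicate 2 (0.03) and sham replicates 1 (0.20) and 2 (0.08). With the replicate number as a block, which is not known to pair these animals, 5 members (6.75% of all genes) had an unadjusted p under 0.05. Of the members 32 were below 0 and the median was -0.02. A limit of 2 CPM left 38 expressed members. Of 18 named members 12 kept their direction in every alternative run. The 23 reversed values were for Kcnd3 3.65 without sham replicate 1, 0.30 in summed reads, 0.52 on coding reads and 0.22, 0.05, 0.60, 0.94 and 0.33 in summed reads without single libraries; for Kcnma1 0.09, 0.16 and 0.07 without stimulated replicate 3, sham replicate 1 and sham replicate 2, 0.20 in summed reads without sham replicate 1 and 0.02 on coding reads; for Kcna5 0.06 without stimulated replicate 1, 0.20 without sham replicate 2 and 0.07 in summed reads without sham replicate 2; for Kcna1 -0.17 in summed reads without stimulated replicate 3; for Kcnh3 0.30, 0.22 and 0.39 in summed reads without stimulated replicate 3, sham replicate 1 and sham replicate 2; and for Kcnk3 0.10 and 0.08 in summed reads without stimulated replicate 2 and sham replicate 2 and 0.01 on coding reads. With single libraries left out of the gene table Kcnd3 ranged from -5.52 to 3.65, Kcnma1 from -0.39 to 0.16 and Kcna5 from -0.67 to 0.20. The cause of these reversals was not tested. Kcnd3, Kcnh3 and Kcnk3 carry few reads on short transcripts that the gene table weights up, as does Kcnq1, which kept its direction. Members with under 100 reads in all limit what depth can show.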
